A study of Mus musculus with 39 samples.

Results

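*Fabp5*, *Impa1*, *Zfand1*, *Zc2hc1a*, *Pmp2*, *Fabp4*, *Chmp4c* and *Snx16* are 8 protein-coding genes that lie near each other close to the start of mouse chromosome 3. They were followed across brain regions of mice with and without *Pianp*. Each has 1 probe set, so they make up 8 of the 25429 probe sets of the array. They were taken by gene symbol from a list, and that list was chosen by the difference between PianpKO and control mice in these samples, in which *Fabp5* and *Zfand1* already stood out. The genotype values of the 8 genes are therefore a description and carry no test. The choice did not use the differences between brain regions, and these were tested. The genes around the 8 on the chromosome are those left once the members were taken out. A neighbor with a clear genotype difference could have been listed as a member, so the values of the neighbors are a description as well.

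RNA came from brain punches of the amygdala, cortex, hippocampus and hypothalamus of 10 male, experimentally naive mice. Control mice carried a floxed *Pianp* allele (FL), made by crossing Pianptm1a(KOMP)Wtsi mice with the flippase line B6N.Cg-Tg(ACTFLPe)9205Dym/CjDswJ. PianpKO mice came from breeding these floxed mice further to a Cre line, B6.C-Tg(CMV-cre)1Cgn/J, that expresses Cre from a CMV promoter in all tissues including the germ line, so the loss is constitutive and not limited to the brain. Both genotypes thus descend from the same floxed mice, and only the PianpKO mice have a history of crossing to the Cre line. There were 5 mice per genotype and 39 samples, with 4 control samples in the amygdala (replicates 1, 2, 3 and 5) and 5 samples in every other group. The methods give a wide range of ages, and single ages did not enter the comparisons. Each sample was hybridized to 1 whole-transcript array, and all values are log2 expression, so that a difference of 1 stands for a doubling.

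The labels and the libraries were checked first. *Pianp* itself, which lies on chromosome 6, was between 7.08 and 8.16 in the control samples and between 5.10 and 6.17 in the PianpKO samples. Samples of 1 group correlated with 0.989 to 0.996 over all probe sets, and 0 pairs of arrays were identical. Marker genes placed the cortex and the hippocampus apart from the other regions, with a mean of 8.92 to 9.31 for the cortex list in cortex samples and of 7.41 to 8.11 for the hippocampus list in hippocampus samples. Amygdala samples came close to the cortex on the cortex list, with up to 8.90. The amygdala list had 7.50 to 7.77 in the amygdala and 7.15 to 7.53 in the cortex, which overlap. Markers of the hypothalamus reached 6.0 to 7.53 in the hypothalamus but also 5.35 to 7.34 in the amygdala, so these punches overlapped in that list.

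The 8 genes fall into several families. FABP5, FABP4 and PMP2 (also known as FABP8) are small cytosolic proteins that bind fatty acids and carry them to enzymes, membranes and nuclear receptors. FABP5 is the form of radial glia, neurons and astrocytes, FABP4 is that of adipocytes and macrophages, and PMP2 is a protein of peripheral myelin. IMPA1, inositol monophosphatase, frees inositol from its phosphate and is a target of lithium. ZFAND1 is a zinc finger protein that brings the p97 ATPase and the proteasome to arsenite-induced stress granules. CHMP4C is a subunit of ESCRT-III, which cuts membranes from within during cell division and endosomal sorting. SNX16 is a sorting nexin of endosomes, and ZC2HC1A is a zinc finger protein with little known function.

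Along the chromosome, by the RefSeq gene order, the sequence of measured genes runs from *Zc2hc1a* past 13 other measured genes to *Fabp5*, then *Gm9833*, *Pmp2*, *Fabp9*, *Fabp4*, *Fabp12*, *Impa1*, *Slc10a5*, *Zfand1*, *Chmp4c* and *Snx16*. Averaged over the regions, 4 of the 8 genes were lower in PianpKO mice and the other 4 were near 0. *Zfand1* had a mean log2 fold change of -0.48 ± 0.07 (SE), which is 71.8% of the control level. *Fabp5* had -0.43 ± 0.07 (74.2%), *Zc2hc1a* -0.23 ± 0.04 (85.2%) and *Impa1* -0.22 ± 0.03 (85.7%). These 4 genes were not adjacent as a block, since *Pmp2*, *Fabp4* and the genes beside them lay between *Fabp5* and *Impa1*.

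Each of these 4 genes had a negative log2 fold change in all 4 regions, as had 14.5% of all probe sets. All PianpKO values lay below all control values in 2 or more regions for 4 of 8 members, against 0.134% of all probe sets. The limma test of the mean effect called 4 of 8 members at an adjusted p under 0.05 (0.319% of all probe sets), and the same 4 had an unadjusted p under 0.05 (14.6%). The choice of the genes used this contrast, so nothing is read from these counts. Because the tissue was bulk, fewer cells of a type and less RNA per cell cannot be told apart.

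**Figure D1:**
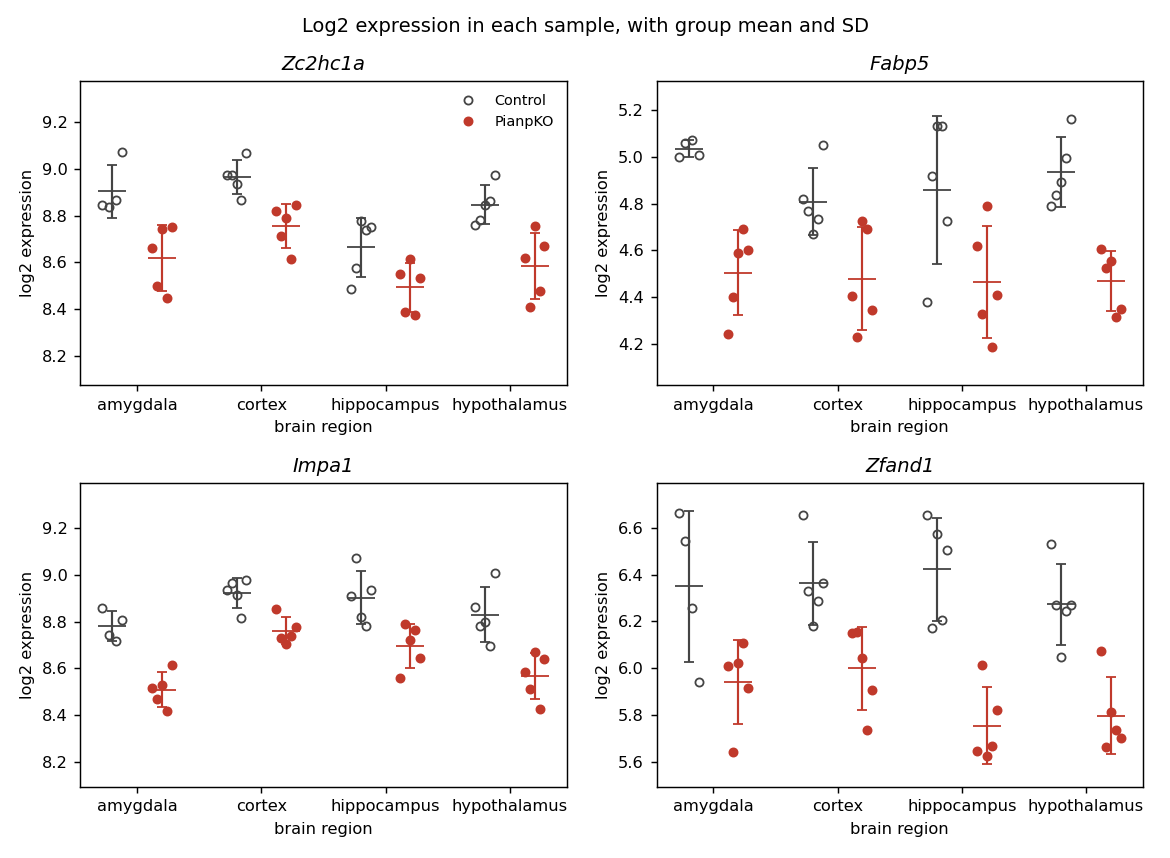
Log2 expression (vertical axis) of *Zc2hc1a*, *Fabp5*, *Impa1* and *Zfand1* in each sample by brain region (horizontal axis), with open circles for control and filled circles for PianpKO samples and the group mean and SD as lines (n = 4 for control amygdala, otherwise n = 5). The PianpKO samples lie lower in every region, without overlap in 3 regions for *Zc2hc1a* and in 2 regions for each of the other 3 genes.

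*Fabp5* was the fatty acid binding protein gene of the group with the clear difference. In the amygdala, its log2 expression was 5.0, 5.06, 5.07 and 5.01 in control replicates 1, 2, 3 and 5, and 4.24, 4.40, 4.59, 4.69 and 4.60 in PianpKO replicates 1 to 5. The control samples lay close together (5.04 ± 0.04, SD, n = 4), the PianpKO samples were spread more widely (4.51 ± 0.18, SD, n = 5), and the groups did not overlap. The log2 fold change in the amygdala was -0.53 ± 0.09 (SE), which ranked 44th from the most negative among 25429 probe sets. *Fabp5* ranked 425th in the cortex, 93rd in the hippocampus and 64th in the hypothalamus.

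In the hypothalamus, *Fabp5* was 4.79, 4.84, 4.89, 5.0 and 5.16 in control replicates 1 to 5 and 4.60, 4.53, 4.55, 4.32 and 4.35 in PianpKO replicates 1 to 5. Here too every PianpKO sample lay below every control sample (log2 fold change -0.47 ± 0.09). In the cortex, the values were 4.82, 4.77, 4.67, 4.74 and 5.05 in control and 4.41, 4.23, 4.73, 4.69 and 4.34 in PianpKO mice. PianpKO replicates 3 and 4 reached into the control range there, and the log2 fold change was -0.33 ± 0.11. In the hippocampus, control mice had 4.38, 4.92, 5.13, 5.13 and 4.72 and PianpKO mice 4.62, 4.33, 4.79, 4.19 and 4.41 (log2 fold change -0.39 ± 0.15). Control replicates 1 and 5 lay among the PianpKO samples in that region, and both groups were spread more than elsewhere (SD 0.32 and 0.24). *Fabp5* lies near the middle of all probe sets in level (4.69 over all samples, against a median probe set of 4.62).

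The other fatty acid binding protein genes of the group did not separate the genotypes. *Pmp2* and *Fabp4* had mean levels of 3.24 and 3.07 over all samples, below the median probe set. Whether signals this dim leave room for a lower value was not tested. *Pmp2* ran from 3.07 to 3.36 in the control samples and from 3.08 to 3.64 in the PianpKO samples, with log2 fold changes of 0.04 (amygdala), 0.06 (cortex), -0.06 (hippocampus) and -0.06 (hypothalamus). *Fabp4* ran from 2.80 to 3.24 and from 2.90 to 3.37, with -0.01, -0.10, 0.05 and 0.02 in the same order. For both genes the groups overlapped in each region.

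*Impa1*, the inositol monophosphatase gene, is expressed at a high level on these arrays (8.75 over all samples), and its differences were small but regular. In the amygdala it was 8.86, 8.74, 8.72 and 8.81 in control replicates 1, 2, 3 and 5, and 8.52, 8.47, 8.53, 8.42 and 8.62 in PianpKO replicates 1 to 5. In the hypothalamus, control replicates 1 to 5 had 8.86, 8.78, 8.80, 8.70 and 9.01, and PianpKO replicates 1 to 5 had 8.59, 8.51, 8.67, 8.43 and 8.64. In these 2 regions no PianpKO sample reached a control sample, with log2 fold changes of -0.27 ± 0.06 and -0.26 ± 0.07.

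In the cortex, *Impa1* was 8.94, 8.97, 8.91, 8.82 and 8.98 in control and 8.85, 8.73, 8.71, 8.74 and 8.78 in PianpKO mice. In the hippocampus, it was 8.91, 9.07, 8.82, 8.78 and 8.93 in control and 8.56, 8.79, 8.72, 8.76 and 8.64 in PianpKO mice. A single PianpKO sample passed the lowest control sample in each of these regions, replicate 1 in the cortex and replicate 2 in the hippocampus, and the log2 fold changes were -0.16 ± 0.05 and -0.21 ± 0.07. In all, 18 of the 20 PianpKO samples lay below every control sample of their region, the highest number among the 8 genes. The share of all probe sets that reach this number was not counted. It rests on the contrast that chose the genes, and nothing is read from it.

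*Zfand1*, whose product acts with p97, had the largest mean difference of the group and the largest in every region but the amygdala, where that of *Fabp5* was larger. Its own difference was largest in the hippocampus. There it was 6.65, 6.17, 6.57, 6.21 and 6.51 in control replicates 1 to 5 and 5.64, 6.01, 5.62, 5.67 and 5.82 in PianpKO replicates 1 to 5. The groups did not overlap, and the log2 fold change of -0.67 ± 0.11 (63.0% of control) was the 12th from the most negative among all probe sets. *Zfand1* ranked 139th in the amygdala, 293rd in the cortex and 55th in the hypothalamus. In the cortex, *Zfand1* was 6.66, 6.33, 6.18, 6.29 and 6.36 in control and 6.15, 6.16, 6.04, 5.74 and 5.91 in PianpKO mice. These groups were apart as well, but the lowest control sample (6.18) and the highest PianpKO sample (6.16) nearly met, and the log2 fold change was -0.36 ± 0.10.

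In the hypothalamus, *Zfand1* was 6.53, 6.27, 6.05, 6.24 and 6.27 in control and 6.07, 5.66, 5.81, 5.73 and 5.70 in PianpKO mice (log2 fold change -0.48 ± 0.10). PianpKO replicate 1 alone passed the lowest control sample, replicate 3. In the amygdala, the control values were 6.66, 6.54, 6.26 and 5.94 in replicates 1, 2, 3 and 5 and the PianpKO values 6.01, 5.64, 6.02, 6.11 and 5.91 (log2 fold change -0.41 ± 0.15). Control replicate 5 lay among the PianpKO samples there, and 2 of the 5 PianpKO samples were below every control sample. The spread of the controls in the amygdala (SD 0.32) was the largest of the 4 regions for this gene.

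*Zc2hc1a*, the member farthest from the others, differed without overlap in 3 regions. In the amygdala it was 8.84, 8.84, 8.87 and 9.07 in control replicates 1, 2, 3 and 5 and 8.66, 8.50, 8.74, 8.45 and 8.75 in PianpKO replicates 1 to 5. In the cortex it was 8.97, 8.97, 8.94, 8.87 and 9.07 in control and 8.82, 8.71, 8.79, 8.61 and 8.84 in PianpKO mice. In the hypothalamus the values were 8.76, 8.78, 8.85, 8.86 and 8.97 in control and 8.62, 8.41, 8.75, 8.48 and 8.67 in PianpKO mice. The log2 fold changes were -0.28 ± 0.09, -0.21 ± 0.06 and -0.26 ± 0.07, and in the hypothalamus the nearest samples of the groups nearly met (8.75 and 8.76). In the hippocampus, control mice had 8.49, 8.58, 8.78, 8.74 and 8.75 and PianpKO mice 8.55, 8.39, 8.61, 8.38 and 8.54 (log2 fold change -0.17 ± 0.08). Control replicates 1 and 2 lay among the PianpKO samples in that region.

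*Chmp4c*, the ESCRT-III gene that lies beside *Zfand1*, was dim (3.81 over all samples), between 3.45 and 4.23 in control and between 3.56 and 4.32 in PianpKO samples. Its log2 fold changes were 0.12, -0.10, 0.01 and 0.03, with no common sign. *Snx16*, the sorting nexin gene at the far end, is far above the median probe set in level (8.09 over all samples). It ran from 7.79 to 8.43 in control and from 7.76 to 8.34 in PianpKO samples, with log2 fold changes of -0.07, 0.12, 0.04 and -0.14 that changed sign between regions. The groups of both genes overlapped in each region.

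**Figure D2:**
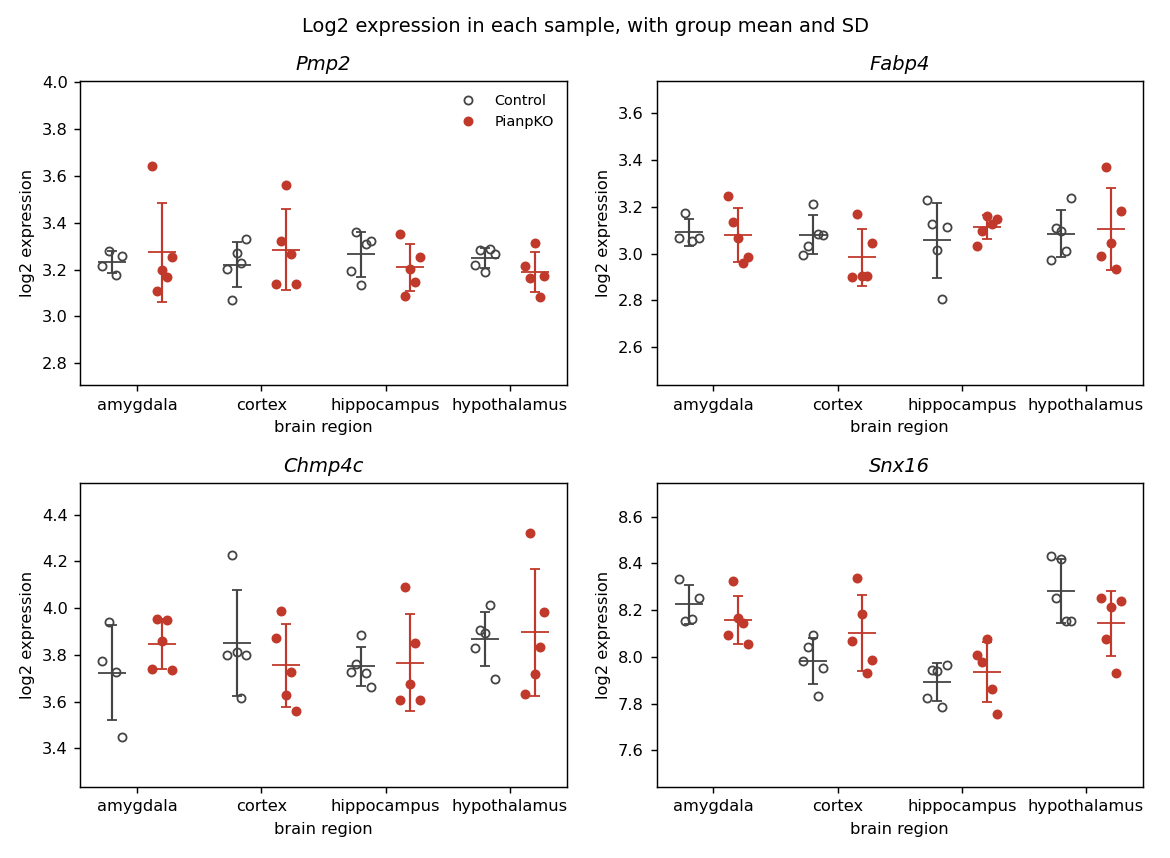
Log2 expression (vertical axis) of *Pmp2*, *Fabp4*, *Chmp4c* and *Snx16* in each sample by brain region (horizontal axis), drawn as for the other members, with group mean and SD. Control and PianpKO samples overlap in every region for these 4 genes, whose mean log2 fold changes over the regions are between -0.0083 and 0.02.

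Counted by region, all PianpKO values lay below all control values for 3 of 8 members in the amygdala (1.35% of all probe sets) and for 3 in the hypothalamus (0.46%), but for 2 in cortex (1.37%) and 1 in hippocampus (0.389%). The limma fits of single regions called 0 of 8 members at an adjusted p under 0.05, where they called 0.00787% (amygdala), 0.0157% (cortex), 0.00393% (hippocampus) and 0.00393% (hypothalamus) of all probe sets. At an unadjusted p under 0.05, 4 of 8 members passed in each region, against 8.07%, 11.2%, 5.08% and 5.55% of all probe sets, regions in the same order. The model named in the methods, without moderation of the variance, also called 0 members after adjustment. With all 8 groups in 1 fit, *Zfand1* was called in the hippocampus, and the share of all probe sets called in that fit was not counted. These counts and this call rest on the contrast that chose the genes, and nothing is read from them.

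The genotype difference was also looked at mouse by mouse, since each mouse gave up to 4 samples. All 20 PianpKO samples lay below the control mean of their region for *Fabp5*, *Impa1*, *Zfand1* and *Zc2hc1a*, so that each of the 5 PianpKO mice was lower in 4 of 4 regions. For these genes the mean deviation of a PianpKO mouse from the control mean did not overlap with that of the control mice. For *Fabp5* it ran from -0.54 to -0.25 in PianpKO mice and from -0.16 to 0.09 in control mice. For *Impa1* the PianpKO mice were the most alike, with -0.27 to -0.19, and the control mice had -0.12 to 0.07. For *Zfand1* the ranges were -0.54 to -0.38 and -0.11 to 0.27. The share of all probe sets with such a separation of mice was not counted. These values rest on the contrast that chose the genes, and nothing is read from them.

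Single mice kept their place across regions in 3 of these genes. PianpKO replicates 2 and 4 had the lowest *Zc2hc1a* values in each region, with mean deviations of -0.34 and -0.37, while replicates 1, 3 and 5 had -0.18, -0.12 and -0.14. The *Zc2hc1a* deviations of control mice ran from -0.08 to 0.12. Control replicate 1 had high *Zfand1* values in all 4 regions, 0.23 to 0.31 above the control mean, while the means of the other control mice lay between -0.11 and -0.02. For *Impa1*, control replicate 4 was the lowest control mouse in each of its 3 regions, with a mean deviation of -0.12, while the other control mice had -0.05 to 0.07.

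**Figure D3:**
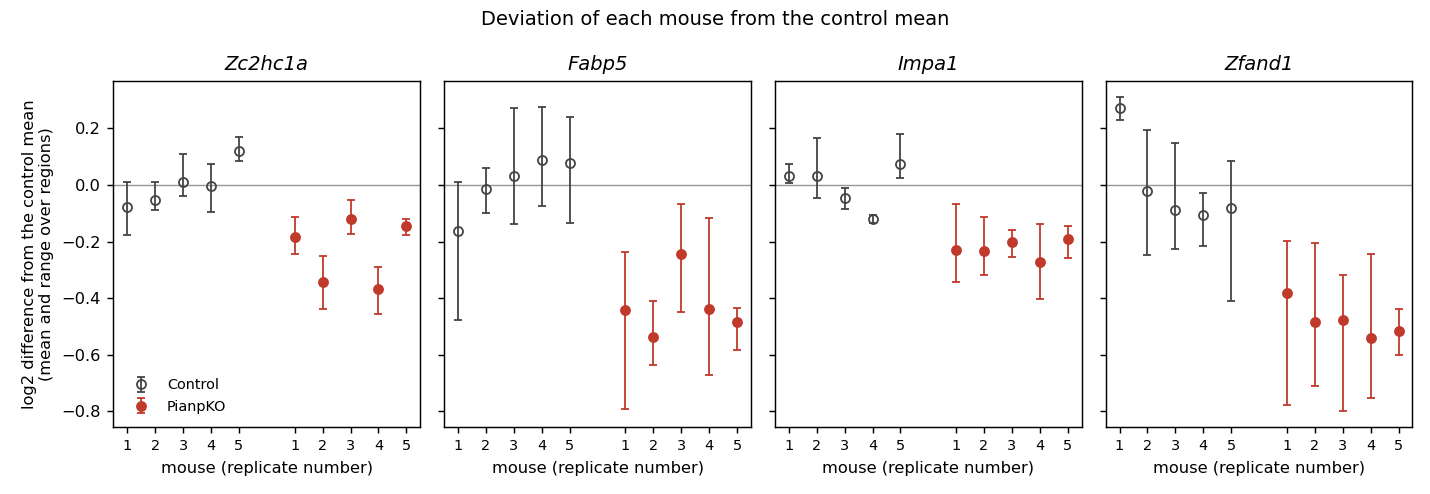
Mean (points) and range (bars) over the regions of each mouse's log2 difference from the control mean of the region (vertical axis), for *Zc2hc1a*, *Fabp5*, *Impa1* and *Zfand1*, by replicate number (horizontal axis) in control (open) and PianpKO (filled) mice. The 5 PianpKO mice lie below the 5 control mice in each gene, and PianpKO replicates 2 and 4 stand lowest for *Zc2hc1a*.

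The size of the difference varied between regions for each gene, from 0.11 between the smallest and the largest log2 fold change for *Zc2hc1a* and *Impa1* to 0.20 for *Fabp5* and 0.30 for *Zfand1*. Whether the genotype effect differed between regions was tested in limma, with a random block for the mouse, and the test called 0 of 8 members and 0 of all 25429 probe sets (0%). At an unadjusted p under 0.05, it passed 0 of 8 members and 5.15% of all probe sets. The members were chosen by their genotype differences, so this test is not independent of the choice and nothing is read from it.

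Marker genes of other cells and regions were set beside these values. In the amygdala, 8 measured markers of striatal projection neurons had a mean of 7.66 to 8.35 in control and of 7.10 to 7.41 in PianpKO samples, with a median log2 fold change of -0.62. In the hypothalamus the same list had a median of -0.52 (8.13 to 8.96 against 7.78 to 8.13), in the hippocampus -0.31 and in the cortex 0.15. The 9 measured hypothalamus markers had a median of 0.95 in the amygdala, 0.32 in the hypothalamus, -0.12 in the hippocampus and -0.0018 in the cortex. Single hypothalamus markers ran from -1.86 to 0.52 in the hippocampus. In limma 0 of these markers passed after adjustment, while at an unadjusted p under 0.05 there were 7 of 8 striatal markers lower in the amygdala and 5 of 8 in the hypothalamus, against 0 in hippocampus and cortex. Their part in the lower values of *Fabp5*, *Impa1*, *Zfand1* and *Zc2hc1a* was not tested. The 10 neuron, 8 astrocyte, 8 microglia and 6 endothelium markers had medians between -0.04 and 0.04 in each region. Single neuron markers ran from -0.20 to 0.93 in the hypothalamus. Other lists moved more in single regions. Choroid plexus markers were lower for 5 of 6 in the cortex (median -0.19), 6 of 6 in hippocampus (-0.11) and 5 of 6 in hypothalamus (-0.08), against a median of 0.08 in the amygdala. Oligodendrocyte markers were higher for 7 of 7 in the cortex (0.18), and precursor markers for 4 of 4 in the hippocampus (0.19). The 3 measured blood markers had a median of 0.36 in the amygdala, and 5 of 6 markers of immature neurons were lower in the hypothalamus (-0.12). The remaining cell lists, meninges and a joint list of adipocytes and Schwann cells, had medians between -0.08 and 0.09. In limma 0 genes of these cell lists passed after adjustment, and at an unadjusted p under 0.05 at most 2 of a list did in a region. Of 6 amygdala markers, 2 were lower and 2 higher at an unadjusted p under 0.05 in the amygdala (median 0.08). At the same threshold in limma, 2 were higher in the hypothalamus (median 0.12), 1 was lower in the cortex (0.02) and 0 passed in the hippocampus (0.02). Cortex markers were lower for 5 of 5 in cortex (-0.09) and hippocampus (-0.05) and 4 of 5 in amygdala (-0.11), but higher for 4 of 5 in hypothalamus (0.11). Hippocampus markers had medians between -0.04 and 0.09. After adjustment, 0 of these region markers passed. The part of these lists in the lower values was not tested either.

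The genes around the members were taken by position, less the 8 members, so that the genes picked for their genotype difference were not among them. A neighbor with a clear difference could have been picked as a member. Low counts here were thus favored by the choice, and nothing is read from them. They were the 45 other measured genes from the start of the chromosome (8 genes before *Zc2hc1a*) through the 17 between *Zc2hc1a* and *Snx16* to the 20 that follow *Snx16*. Their median mean log2 fold change was -0.01, and 18 of the 45 were above the median probe set in level. The limma fits called 0 of 45 neighbors in each region. At an unadjusted p under 0.05, 9 of 45 passed in the cortex (11.2% of all probe sets), 2 each in hippocampus (5.08%) and hypothalamus (5.55%), and 0 in the amygdala (8.07%). The unmoderated model called 0 of 45 after adjustment in each region as well. Control and PianpKO values did not overlap, in either direction, for 1 neighbor each in amygdala (2.46% of all probe sets), cortex (2.11%) and hippocampus (0.775%), and for 0 in the hypothalamus (0.936%). Of the 45, 0 were separated in the same direction in 2 or more regions, against 0.236% of all probe sets.

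The genes nearest to the lower members gave values near 0. Between *Zc2hc1a* and *Fabp5* there are 7 genes above the median probe set, with mean log2 fold changes of -0.03 for *Stmn2*, which encodes a tubulin-binding protein of growing axons, 0.07 for *Hey1*, a Notch target, 0.03 for *Mrps28*, a gene of the mitochondrial ribosome, -0.05 for *Tpd52*, -0.02 for *Zbtb10*, 0.02 for *Zfp704* and 0.06 for *Pag1*, an adaptor of lipid rafts. These 7 genes and the 4 named next fall outside the naming rule and are given because of their place. Between *Fabp5* and *Snx16*, the 4 other measured genes (*Gm9833*, *Fabp9*, *Fabp12* and *Slc10a5*) were all dim, with mean log2 fold changes from -0.0044 to 0.05. The measured genes between *Zc2hc1a* and *Snx16* that are not members had mean log2 fold changes from -0.05 to 0.07. They were left after the members had been picked by the genotype difference, so nothing is read from this about the 4 lower genes. Most of the genes in the inner stretch, between *Fabp5* and *Snx16*, were dim.

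**Figure D4:**
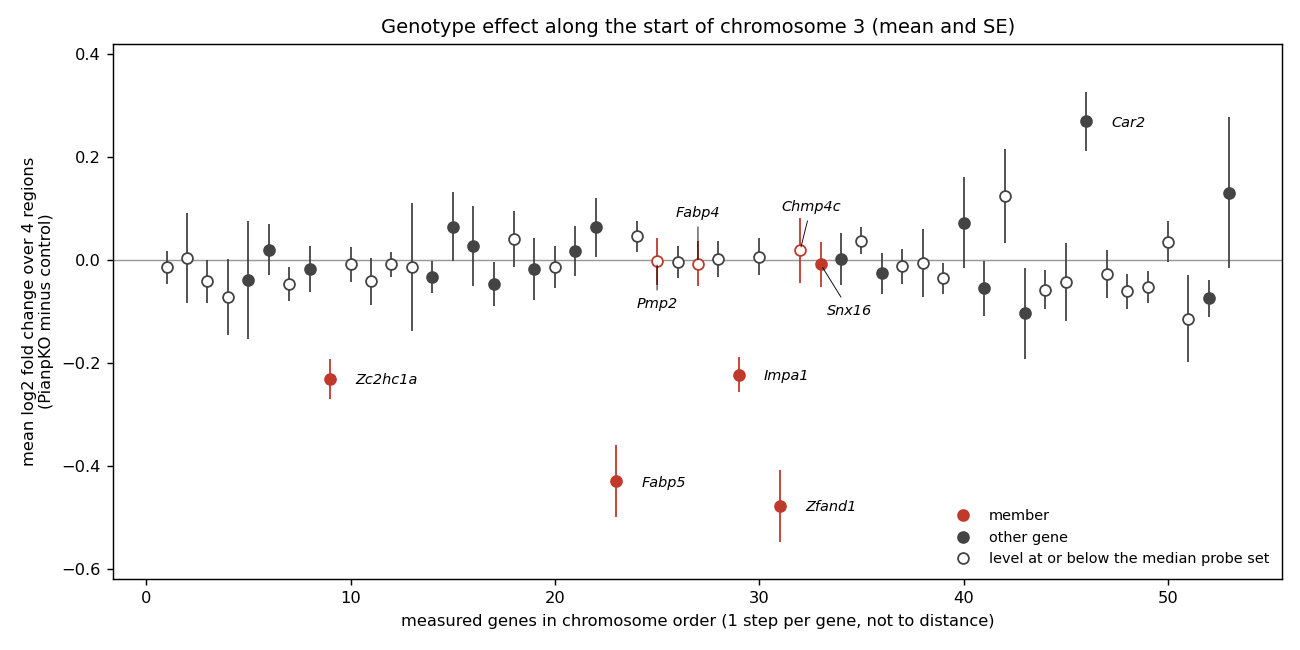
Mean log2 fold change over the 4 regions, PianpKO minus control, with its SE (vertical axis), of 53 measured genes at the start of chromosome 3 in chromosome order (horizontal axis, 1 step per gene and not to distance). Members are red, other genes gray, and open circles mark genes at or below the median probe set; *Zfand1*, *Fabp5*, *Zc2hc1a* and *Impa1* lie between -0.48 and -0.22, the other genes between -0.11 and 0.27.

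Differences between brain regions were not used to choose the genes and were tested in each genotype. In control mice, limma's F test over the 4 regions (random block for the mouse) called 2 of 8 members, *Snx16* and *Zc2hc1a*, against 27.6% of all probe sets, so the members' share was close to the background. *Snx16* was highest in the hypothalamus, where control replicates 1 to 5 had 8.43, 8.25, 8.42, 8.15 and 8.15, and lowest in the hippocampus, where they had 7.82, 7.94, 7.94, 7.79 and 7.96. The amygdala samples lay between 8.15 and 8.33 and the cortex samples between 7.83 and 8.09. The hypothalamus and the amygdala were thus both above the hippocampus and the cortex without overlap (adjusted p of the F test 2.4e-04).

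Of the 48 limma tests in control mice (6 pairs of regions for each of 8 members), 6 passed, and 4 of these were tests of *Snx16*. The log2 expression of *Snx16* was higher in the hypothalamus than in the hippocampus by 0.39 (hippocampus minus hypothalamus -0.39 ± 0.06 SE, adjusted p = 2.8e-04) and than in the cortex by 0.30 (adjusted p = 0.00162), and higher in the amygdala than in the hippocampus by 0.32 (adjusted p = 0.00326) and than in the cortex by 0.24 (adjusted p = 0.0326). Hypothalamus and amygdala are neighbors in its order, as are cortex and hippocampus, and neither of these pairs passed in limma. Amygdala minus hypothalamus was -0.07 ± 0.07 SE (adjusted p = 0.679), and cortex minus hippocampus was 0.09 ± 0.06 SE (adjusted p = 0.445). In control mice the share of all probe sets that passed was 10.2% for amygdala and cortex, 10.9% for amygdala and hippocampus, 7.41% for amygdala and hypothalamus, 14.5% for cortex and hippocampus, 23% for cortex and hypothalamus and 13.2% for hippocampus and hypothalamus.

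*Zc2hc1a* ran from cortex over amygdala and hypothalamus to hippocampus in control mice, with means of 8.96 ± 0.07 (SD, n = 5), 8.90 ± 0.11 (SD, n = 4), 8.85 ± 0.08 (SD, n = 5) and 8.67 ± 0.13 (SD, n = 5). The F test gave an adjusted p of 0.00464 in limma, and the call was lost without control replicate 1 (0.0513). Cortex was above hippocampus by 0.30 ± 0.06 (adjusted p = 0.00193) and amygdala above hippocampus by 0.24 ± 0.06 (adjusted p = 0.0198). Of the neighbors in this order, amygdala and cortex (amygdala minus cortex -0.06 ± 0.06 SE, adjusted p = 0.687) did not pass in limma. Amygdala and hypothalamus (amygdala minus hypothalamus 0.06 ± 0.06 SE, adjusted p = 0.709) did not pass either. Hippocampus and hypothalamus differed by 0.18 (hippocampus minus hypothalamus -0.18 ± 0.06 SE) and missed the threshold with an adjusted p of 0.0572. In PianpKO mice *Zc2hc1a* had the same order of regions and passed again (adjusted p = 0.0389), with cortex above hippocampus by 0.26 ± 0.07 (adjusted p = 0.012). That second call was lost when replicate 1, 2, 4 or 5 was left out (adjusted p between 0.0655 and 0.152) and without the mouse as a block (0.0816).

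*Impa1* had the same order of regions in both genotypes, cortex, hippocampus, hypothalamus and amygdala. In control mice the means were 8.92, 8.90, 8.83 and 8.78, a span of 0.14 that did not pass (adjusted p = 0.227). In PianpKO mice they were 8.76, 8.70, 8.57 and 8.51, a span of 0.25 that passed the F test (adjusted p = 0.00523). There, cortex was above amygdala by 0.25 ± 0.06 (adjusted p = 0.00347) and above hypothalamus by 0.19 ± 0.06 (adjusted p = 0.0173), and hippocampus was above amygdala by 0.19 ± 0.06 (adjusted p = 0.035). That *Impa1* passed in 1 genotype only does not show that the genotypes differ in their regional pattern. The F test called 2 of 8 members in PianpKO mice (26.9% of all probe sets), and 4 of 48 tests passed, in pairs of regions with background shares of 14.9% (amygdala and cortex), 11.5% (amygdala and hippocampus), 14.7% (cortex and hippocampus) and 20.8% (cortex and hypothalamus).

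*Fabp5* and *Zfand1* passed the region test in neither genotype. In control mice, *Fabp5* had means of 5.04 in the amygdala, 4.94 in the hypothalamus, 4.86 in the hippocampus and 4.81 in the cortex (adjusted p = 0.443), and in PianpKO mice the means of the 4 regions lay within 0.04 of each other (4.47 to 4.51). *Zfand1* had control means of 6.42 in the hippocampus, 6.36 in the cortex, 6.35 in the amygdala and 6.27 in the hypothalamus (adjusted p = 0.798). In PianpKO mice the hippocampus was lowest (5.75) and the cortex highest (6.0), with an adjusted p of 0.208. The dim genes *Pmp2*, *Fabp4* and *Chmp4c* had adjusted p-values of 0.923, 0.987 and 0.546 in control mice, with no region apart. *Snx16* kept a span of 0.22 in PianpKO mice but did not pass (adjusted p = 0.121).

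The probe sets most like *Fabp5*, *Impa1* and *Zfand1* were ranked by Pearson's r over the 39 samples after the mean of each region was subtracted. These r are a description with no test: the points share mice and arrays, and the difference between the genotypes is part of them. For *Fabp5* the closest were *Pianp* (r = 0.80), *Lgi2* (0.76), *Pigc* (0.76), *Zc2hc1a* (0.75) and *Hnrnph2* (0.73). For *Impa1* they were *Pianp* (0.74), *Zc2hc1a* (0.72), *Erdr1* (0.72), *Lgi2* (0.69) and *Zfand1* (0.68), and for *Zfand1* they were *Pianp* (0.76), *Erdr1* (0.73), *Smarca1* (0.72), *Lgi2* (0.70) and *Rtca* (0.69). Of the other members, *Zc2hc1a* is thus among the closest of *Fabp5* and *Impa1*, and *Zfand1* among those of *Impa1*. When the mean of each region and genotype was subtracted instead, r with *Pianp* was 0.43 for *Fabp5*, -0.45 for *Impa1* and -0.13 for *Zfand1*. Between the 4 lower genes, r within the groups was then low, from -0.17 for *Fabp5* and *Zfand1* to 0.39 for *Fabp5* and *Zc2hc1a*.

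Genes that share a family or pathway with the members were counted in the mean effect over regions. After limma's adjustment, 0 genes passed in any of these lists, in either direction. Of 10 measured other members of the fatty acid and retinoid binding family, 5 were lower and 5 higher (median -0.0010), and 1 had an unadjusted p under 0.05, *Fabp2* with -0.09 (adjusted p = 0.321), followed by *Crabp1* with 0.15 (0.443). Of 15 genes of fatty acid uptake, activation and nuclear receptors, 11 were higher (median 0.05), and 3 had an unadjusted p under 0.05. *Cd36*, a fatty acid transporter, had 0.17 (adjusted p = 0.115) and *Slc27a1*, a fatty acid transport protein, 0.09 (0.315). The median over all probe sets was -0.0013, and 14.6% of them had an unadjusted p under 0.05.

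Around *Impa1*, 9 of 12 measured genes of inositol synthesis, transport and phosphate turnover were higher (median 0.08), 2 of them at an unadjusted p under 0.05. Both encode transporters that bring inositol into the cell. *Slc5a3* had 0.31 ± 0.10 (SE, adjusted p = 0.134), with log2 fold changes of 0.36 in amygdala, 0.46 in cortex, 0.39 in hippocampus and -0.0053 in hypothalamus. *Slc5a11* had 0.18 ± 0.07 (0.192). Neither passed the adjustment.

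Around *Zfand1*, 7 of 11 ZFAND, p97 and stress granule genes were lower (median -0.02), with *Zfand2b*, a proteasome adaptor, at 0.15 (adjusted p = 0.114) and *Zfand5*, a proteasome activator, at -0.10 (0.136). Unadjusted, 2 were lower and 3 higher at p under 0.05. Around *Chmp4c*, the 12 other ESCRT-III genes had a median of -0.0013, 3 were lower and 1 higher at an unadjusted p under 0.05, and the smallest p-values were those of *Chmp1b* (-0.15, adjusted p = 0.0992) and *Chmp6* (-0.16, 0.260). Around *Snx16*, the 29 other sorting nexins had a median of -0.0068 and 1 gene in each direction at an unadjusted p under 0.05, with *Snx22* at 0.24 (adjusted p = 0.281) and *Snx13* at -0.07 (0.312). The 2 relatives of *Zc2hc1a* were dim, with 0 at an unadjusted p under 0.05, *Zc2hc1c* with 0.11 (adjusted p = 0.384) and *Zc2hc1b* with 0.06 (0.498).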

How the data were processed

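The deposited values are log2 expression from Affymetrix whole-transcript mouse arrays (Mouse Gene 2.0 ST), which the authors annotated with a custom chip definition (version 21, 1 probe set per Entrez gene) and quantile-normalized. The submitters' processing notes name RMA. Array medians were 4.62. Of 25429 probe sets, 24675 have a gene name in the platform annotation. RefSeq genes (GRCm38.p6) gave names and gene order only.

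Members, lists and rules were chosen with earlier results of these data known. Genotypes were compared within each region, regions within each genotype with the mouse as a random block (block correlations 0.12 and 0.08), and the mean genotype effect over all samples (0.11), in R 4.3.3 with limma 3.58.1 and statmod 1.5.0. The threshold was an adjusted p of 0.05, with the Benjamini-Hochberg method applied across 25429 probe sets. Fits were tested on simulated data. The text names all members, *Pianp*, neighbors that passed or were separated in 2 or more regions, the 5 probe sets most like *Fabp5*, *Impa1* and *Zfand1*, and up to 2 genes per pathway list. *Car2* and genes given for their place on the chromosome were added after their values were seen.

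Regions with the same number and genotype come from 1 mouse, as read from the labels. Replicate numbers do not pair control with PianpKO mice, which are different animals. The alternatives were other normalization and centring, a filter on dim probe sets and fits of all 8 groups. Also used were an ANOVA within each region without variance moderation, another variance prior, array weights, blocks, and leaving out each mouse. Fits without a mouse and with the other prior kept the block correlation. Raw scans, scan dates and sequences of the members were not used here. The number of arrays limits the precision.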

Additional observations from a re-analysis of the deposited data

Results flagged for a closer look

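Among the 64 groups of samples (8 genes, 4 regions and 2 genotypes), 3 held a sample far from the others, all in the amygdala. Chance alone flags about 1 in 20 such groups. *Zc2hc1a* was 9.07 in control replicate 5, with the nearest control at 8.87, and this mouse also had the highest *Zc2hc1a* mean of the control mice. *Pmp2* was 3.64 in PianpKO replicate 1, with the nearest sample at 3.25. *Fabp4* was 3.18 in control replicate 2, with the nearest sample at 3.07, and both of these genes are dim.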

How the results depend on the processing

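For *Fabp5*, *Impa1*, *Zfand1* and *Zc2hc1a*, all 348 alternative values of the log2 fold change were negative, and 0 moved by over 1 SD. For the mean over regions, that SD was derived from the SE. Several of the alternatives change the variance or the set of probe sets and leave the fold change as it was. The genes were chosen by this contrast, so negative values were favored and nothing is read from this count. In the hippocampus, fits of all 8 groups called 1 member (*Zfand1*) in place of 0, with and without the mouse as a random block. The share of all probe sets called in these fits was not counted, and nothing is read from the call. With the replicate number as a block, 0 members and 0 neighbors were called in each region; same-numbered mice of the 2 genotypes correlated from -0.09 to 0.24 in their deviations. Without the replicate block, the region test called 1 member in PianpKO mice in place of 2.

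Leaving out 1 mouse gave 0 called members in each region. Members without overlap were then 3 to 4 in the amygdala, 2 to 3 in the cortex, 1 to 2 in the hippocampus (2 without control replicate 4 or PianpKO replicate 2) and 3 to 4 in the hypothalamus. Leaving out a sample can only keep or raise such a number. The share of all probe sets without overlap was not counted in these settings. The members were chosen by the genotype difference, so nothing is read from these numbers. Region tests called 1 to 2 members in control mice and 1 to 2 in PianpKO mice, and 4 to 6 region pairs passed in control mice. The mean effect called 4 members throughout and 0 to 1 neighbors in place of 1 (*Car2*). The members were chosen by this contrast and the neighbors are those left, so nothing is read from these 2 counts. *Pmp2*, *Fabp4* and *Chmp4c* are dim, which limits what can be read from them. The PianpKO means of *Fabp5*, from 4.47 to 4.51, also lay below the median probe set (4.62).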

Other observations

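The neighbors of the 8 genes include the carbonic anhydrase genes *Car13*, *Car1*, *Car3* and *Car2*, whose products interconvert carbon dioxide and bicarbonate. *Car2*, the form of oligodendrocytes and some astrocytes in the brain, was the single neighbor called in the mean effect over regions (log2 fold change 0.27, limma adjusted p = 0.0306, named after its values were seen), where 0.319% of all probe sets were called. At an unadjusted p under 0.05 there were 2 of 45 neighbors, against 14.6% of all probe sets. The cortex had the widest difference, from 10.63 to 10.95 in control samples and from 10.90 to 11.26 in PianpKO samples, and the groups overlapped in each region. The call was lost when control replicate 1, 3 or 4 or PianpKO replicate 2, 4 or 5 was left out (adjusted p between 0.0657 and 0.119). *Car13*, *Car1* and *Car3* had mean log2 fold changes of -0.10, -0.06 and -0.04. The 7 measured oligodendrocyte markers had a median of 0.18 in the cortex, where 7 of 7 were higher, and of 0.07 in the hypothalamus, where 6 of 7 were. In the amygdala and the hippocampus 5 of 7 were lower (medians -0.02 and -0.01), while *Car2* had log2 fold changes of 0.20 and 0.24 there. Their part in the *Car2* value was not tested.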
